A study of Arabidopsis thaliana with 9 samples.

Results

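UDP-glycosyltransferases (UGTs) are described here across the 9 ATH1 microarrays of an Arabidopsis thaliana study of axillary bud growth. A gene was included when its probe set carried 1 gene name in the annotation of the array and that name began with UGT and a number. UGT76C1 and UGT76C2 were left out. Each gene was represented by 1 probe set. The rule gave 45 genes, each with 1 probe set, out of 22810 probe sets on the array, of which 13513 were named with 1 gene. A further 3 probe sets that name a UGT together with a second gene were not used. All 45 genes were found by gene ID in the RefSeq annotation of the TAIR10.1 assembly, which supplied their locus names.

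UGTs transfer a sugar, usually glucose, from a UDP-sugar to a small acceptor molecule, and family members share a conserved stretch near the C-terminus that binds the sugar donor. Their acceptors include hormones, flavonoids, phenylpropanoids, glucosinolate precursors, sterols and foreign compounds. Adding a sugar commonly turns an active hormone into a storage or inactive form and makes secondary metabolites soluble enough for the vacuole. Arabidopsis UGTs are sorted by sequence into lettered groups, and many lie side by side in the genome as arrays of related copies.

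The tissue was the cauline bud of node 1 of Col-0 plants 3 to 4 weeks old. Nodal stem segments were cut from the plant and held between separated upper and lower agar, so that every group shares the excision, and the buds were taken after 18 h. The arrays labelled mock had a small volume of 70% ethanol, the solvent of NAA, on the apical side. In the study's methods the solvent of the CK, DMSO, served as the basal mock. Those labelled NAA had 1 µM of the auxin 1-naphthaleneacetic acid on the apical side. Those labelled NAA+BA had the same apical NAA and, on the basal side, 1 µM of the cytokinin (CK) 6-benzylaminopurine. Each group held 3 arrays, which the labels call biological replicates. The comparison with mock asks how apical auxin changed transcript levels in the bud, and the comparison of NAA+BA with NAA asks what basal CK added. CK alone was not among these groups.

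The names mock and NAA are in doubt. The study lists probe sets that were lower with auxin than in the control and also higher with added CK than with auxin alone. Both changes had to reach 2-fold. On the arrays as labelled, all 220 of these were higher on NAA than on mock and 0 were lower, so the direction given here opposes the one in the study. The study also describes buds of the control and buds given auxin with CK as having nearly the same transcripts. As labelled, NAA+BA and mock differed at 1241 probe sets, whereas NAA+BA and NAA differed at 2, both higher on NAA+BA. Both observations run as they would with the names mock and NAA exchanged. The values below keep the labels of the arrays. If the names mock and NAA were exchanged, each NAA minus mock difference would change its sign. The NAA+BA minus NAA difference would become the one against the control, and the NAA+BA minus mock difference the one for added CK. None of the 45 UGTs was among the 220. Because that list required both changes, absence from it does not mean that auxin left a UGT unchanged in the study. Array medians lay between 6.99 and 7.11 on the log2 scale. Of the 10 bud and meristem markers listed, only LAS (LATERAL SUPPRESSOR), a regulator of axillary meristem formation, was matched to a probe set, and it read 5.60 to 6.18 over the 9 arrays. The numbered replicates did not contribute equally, and replicate 3 of mock lay farthest from its group mean for 62.2% of the UGTs and 60.3% of all probe sets. Replicate 3 of NAA did so for 64.4% and 63.0%.

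Values are the deposited log2 RMA signals, and a difference of 1 is a 2-fold change. A gene was called when its limma p-value, adjusted by Benjamini-Hochberg over all 22810 probe sets, was under 0.05 and the change was at least 2-fold. Errors of differences are the standard error (SE) of that fit. In a whole bud, fewer cells of a type and less RNA per cell cannot be told apart. The signal of 1 probe set cannot be set against that of another, so the following order of mean signals is not an order of transcript abundance.

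The 45 UGTs covered the range from the dimmest to well measured signals. Their means over the 9 arrays ran from 3.43 to 10.93, with a median of 5.65, against a median of 7.07 over all probe sets. 29 UGTs, or 64.4%, exceeded 5 on at least 3 arrays, compared with 70.5% of all probe sets, and 14 stayed under 5 on every array. The highest means were those of UGT88A1 (AT3G16520), UGT78D1, UGT78D2, UGT71B1 and UGT74B1. UGT74B1, which glucosylates thiohydroximates in glucosinolate synthesis, read 8.76 to 9.19 on mock, 8.75 to 9.09 on NAA and 8.94 to 9.09 on NAA+BA, with all groups overlapping. The lowest means were those of UGT76E12, UGT76B1, UGT84B2, UGT71C1 and UGT72B3. In this dim range 1 array could stand alone: UGT76E12 read 3.32, 3.23 and 4.33 on mock and 3.32 on all 3 NAA arrays. Within groups the SD had a median of 0.21 over the UGTs, against 0.16 over all probe sets, and reached 0.92.

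**Figure D1:**
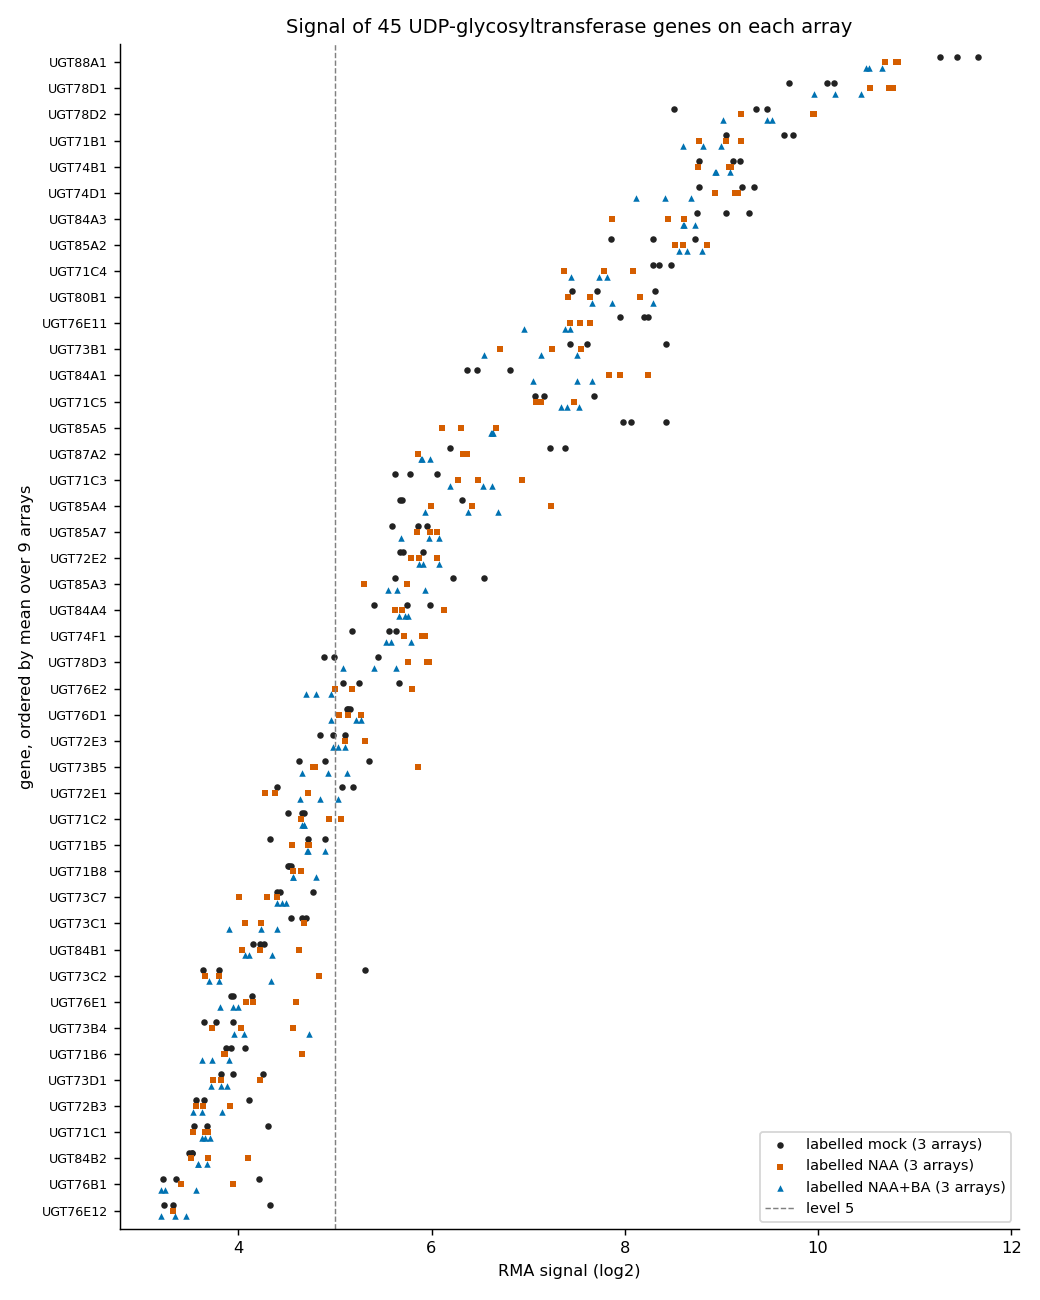
Log2 RMA signal (x axis) of each of the 45 UGT genes (y axis, ordered by mean) on the 9 arrays, with 3 points per labelled group; the dashed line marks a level of 5. Most genes have overlapping groups, and UGT85A5 and UGT84A1 stand out by mock arrays that lie apart from the others.

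On the arrays labelled NAA, 1 UGT was upregulated and 1 was downregulated relative to mock. These were UGT84A1, which forms glucose esters of hydroxycinnamic acids, and UGT85A5. The 2 called genes are 4.44% of the 45 UGTs, close to the 4.78% of all probe sets that were called (1.28% higher and 3.51% lower). On the arrays labelled NAA+BA, UGT85A5 and UGT87A2 were called lower than mock and no UGT was called higher. This was again 4.44% of the UGTs, against 5.44% of all probe sets (2.19% higher and 3.25% lower). The median UGT differed from mock by -0.01 with NAA and by -0.05 with NAA+BA, and the medians over all probe sets were 0.04 and 0.02. At an unadjusted limma p under 0.05, 28.9% of the UGTs differed with NAA and 26.7% with NAA+BA, against 31.6% and 31.9% of all probe sets. The NAA and mock arrays did not overlap for 24.4% of the UGTs and 31.6% of all probe sets, and the NAA+BA and mock arrays for 33.3% and 33.5%. Both comparisons use the same mock arrays.

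More UGTs passed the adjusted p-value without the 2-fold requirement. With NAA, 4 were higher (UGT84A1, UGT78D3, UGT71C3, UGT78D1) and 5 were lower (UGT85A5, UGT84A3, UGT88A1, UGT71C4, UGT76E11). These 9 of 45 genes stand against 18.3% of all probe sets (9.03% higher and 9.29% lower). With NAA+BA, 2 were higher (UGT84A1, UGT71C3) and 7 were lower (UGT85A5, UGT87A2, UGT88A1, UGT76E11, UGT71C4, UGT74D1, UGT71B1), again 9 of 45, against 19.9% of all probe sets (10.6% higher and 9.29% lower). Mock and NAA arrays of the same number deviated together, and a fit with the replicate number as a block raised the NAA count from 9 to 15, against 27.3% of all probe sets. The 6 added by the block were UGT74F1, UGT78D2 and UGT85A4, which were higher, and UGT71B1, UGT73B1 and UGT87A2, which were lower. The block left the 2 calls of at least 2-fold in each comparison as they were. Many of these smaller differences rested on single arrays. Leaving out 1 array at a time gave 4 to 11 passing genes with NAA, the highest count without replicate 3 of mock and the lowest without replicate 1 of mock or replicate 1 or 2 of NAA. With NAA+BA it gave 3 to 10, the highest again without replicate 3 of mock and the lowest without replicate 2 of mock or replicate 1 of NAA+BA. UGT84A1, UGT85A5 and UGT88A1 passed in every such fit with NAA, and UGT85A5, UGT88A1 and UGT76E11 in every one with NAA+BA.

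**Figure D2:**
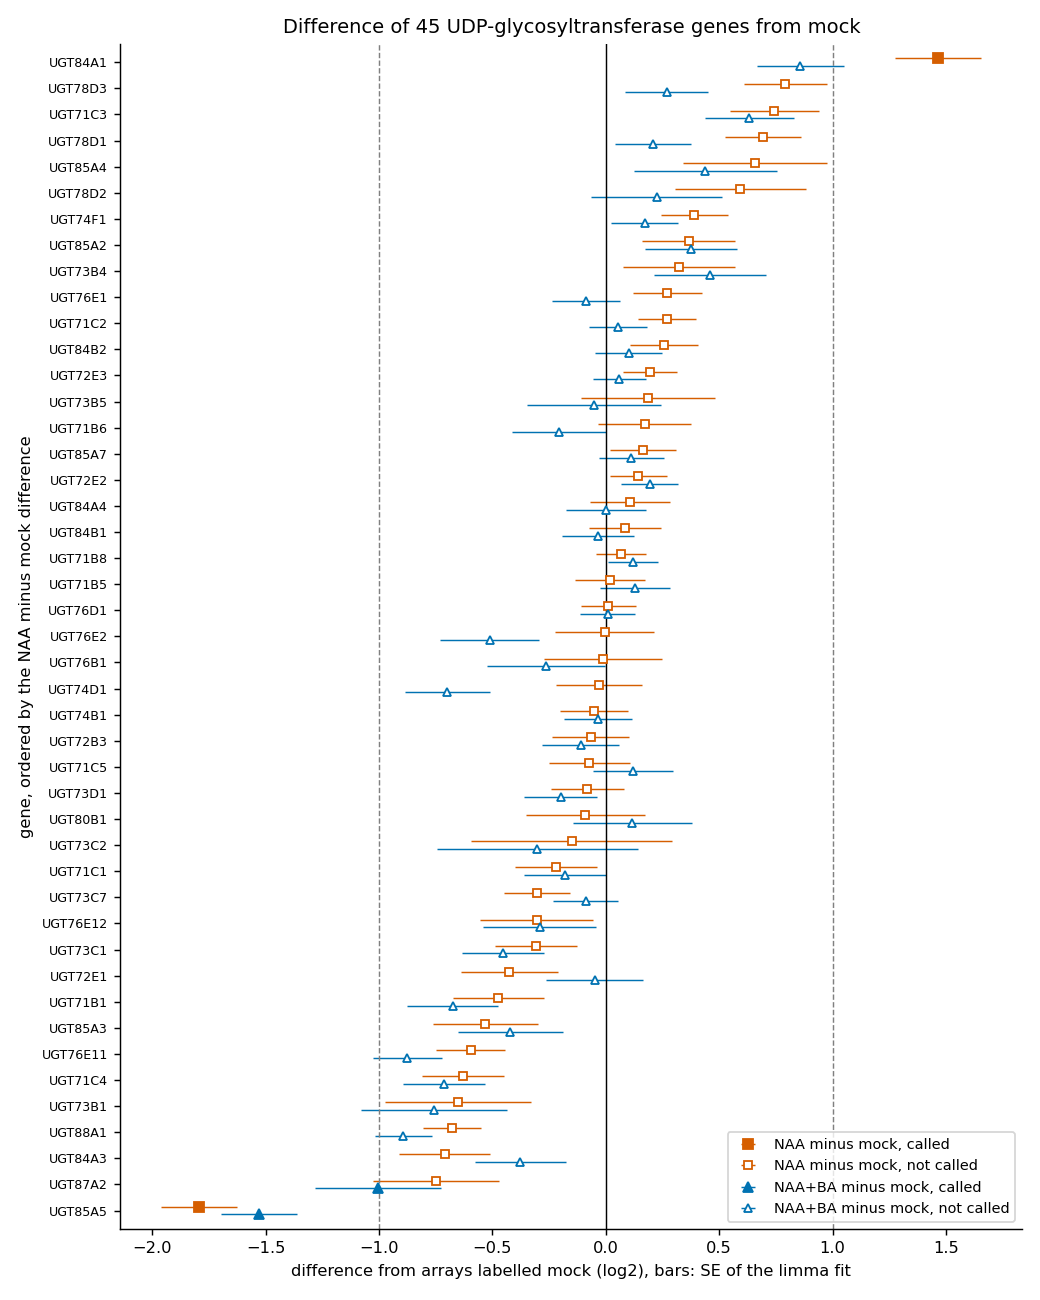
Difference of each of the 45 UGT genes from the arrays labelled mock on the log2 scale (x axis), for NAA (squares) and NAA+BA (triangles), with 3 arrays per group and bars giving the SE of the limma fit; filled symbols are called genes and dashed lines mark a 2-fold change. UGT84A1 is the only filled symbol to the right of 0, and UGT85A5 is filled in both comparisons.

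UGT84A1 (AT4G15480) had the largest increase in the family on NAA as labelled, which would be the largest decrease if mock and NAA were exchanged. It read 6.82, 6.47 and 6.36 on the mock arrays, 8.24, 7.95 and 7.84 on the NAA arrays and 7.66, 7.51 and 7.05 on the NAA+BA arrays. The 3 groups did not overlap, with NAA+BA between the other two. Relative to mock the difference was 1.46 ± 0.19 with NAA, or 2.76-fold (limma adjusted p = 0.00157), and 0.86 ± 0.19 with NAA+BA, or 1.81-fold (adjusted p = 0.0137). Arrays of the same number differed by 1.43, 1.49 and 1.48 between NAA and mock. The NAA+BA difference stayed under 2-fold, except without replicate 3 of NAA+BA, when UGT84A1 was called at 1.04.

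The neighbours of UGT84A1 did not rise with it. UGT84A3 (AT4G15490) and UGT84A4 (AT4G15500), which act on the same class of acids, follow it in the annotation with no protein-coding gene between them. UGT84A3 read 9.04, 9.28 and 8.74 on mock, 7.87, 8.45 and 8.61 on NAA and 8.60, 8.61 and 8.72 on NAA+BA. It was lower with NAA by a log2 difference of -0.71 ± 0.20 (limma adjusted p = 0.0369), whereas the NAA+BA difference of -0.38 ± 0.20 did not pass (adjusted p = 0.239). The NAA difference depended on replicate 3, and without all arrays of that number it reached 2-fold (adjusted p = 0.00766). UGT84A4 differed from mock by 0.11 ± 0.18 with NAA and by 0.00 ± 0.18 with NAA+BA. The UGT84A1 minus UGT84A3 difference within an array changed by 2.18 between mock and NAA.

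UGT85A5 (AT1G22370) had the largest decrease in the family on NAA as labelled, which would be the largest increase if mock and NAA were exchanged. It belongs to the UGT85A genes, a subfamily in which UGT85A1, not among the genes analysed here, is known to glucosylate the side chain of zeatin-type CKs. UGT85A5 read 8.42, 8.07 and 7.98 on mock, 6.31, 6.11 and 6.66 on NAA, and 6.63, 6.63 and 6.61 on NAA+BA. Every array labelled NAA or NAA+BA lay more than 1 unit below every mock array. The difference was -1.79 ± 0.17 with NAA, a signal 3.47-fold lower (limma adjusted p = 0.000379), and -1.53 ± 0.17 with NAA+BA, or 2.89-fold lower (adjusted p = 0.000993). Leaving out any single array kept the NAA difference between -1.95 and -1.66.

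None of the other measured UGT85A genes passed the test in either comparison. UGT85A7 (AT1G22340), UGT85A2 (AT1G22360), UGT85A5 and UGT85A3 (AT1G22380) lie in this order with no other protein-coding gene between neighbours. UGT85A2 read 7.85, 8.29 and 8.73 on mock and 8.52 to 8.85 on NAA, a difference of 0.36 ± 0.20 that did not pass (limma adjusted p = 0.263). UGT85A3 differed by -0.53 ± 0.23 (adjusted p = 0.145) and UGT85A7 by 0.17 ± 0.15 (adjusted p = 0.497). The groups overlapped for all 3 of these neighbours. Between mock and NAA, the UGT85A2 minus UGT85A5 difference within an array changed by 2.16 and the UGT85A5 minus UGT85A3 difference by -1.26, both without overlap (exact permutation p = 0.1 each, the smallest that 3 against 3 arrays allow). These pairs were chosen because UGT85A5 was called on the same arrays, so the test gives no separate support for a difference between neighbours. UGT85A4, which lies elsewhere on the same chromosome, read 5.69, 5.67 and 6.32 on mock and 6.00, 6.42 and 7.23 on NAA, a difference of 0.66 ± 0.32 (adjusted p = 0.19) that passed with the replicate block (adjusted p = 0.012).

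UGT87A2 (AT2G30140), known for promoting flowering through repression of FLC, was the third called gene. It read 7.23, 7.38 and 6.19 on mock, 6.32, 6.37 and 5.86 on NAA and 5.99, 5.90 and 5.89 on NAA+BA. Replicate 3 of mock lay more than 1 unit below the other mock arrays and within the range of the NAA arrays. The difference was -1.01 ± 0.28 with NAA+BA, 2.01-fold lower (limma adjusted p = 0.0308), and -0.75 ± 0.28 with NAA (adjusted p = 0.0914). The first call did not hold without replicate 1 or 2 of mock or without any 1 of the NAA+BA arrays, and over all arrays left out in turn the difference ranged from -1.38 to -0.78. Without replicate 3 of mock, UGT87A2 was called in both comparisons, at -1.12 with NAA and -1.38 with NAA+BA.

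**Figure D3:**
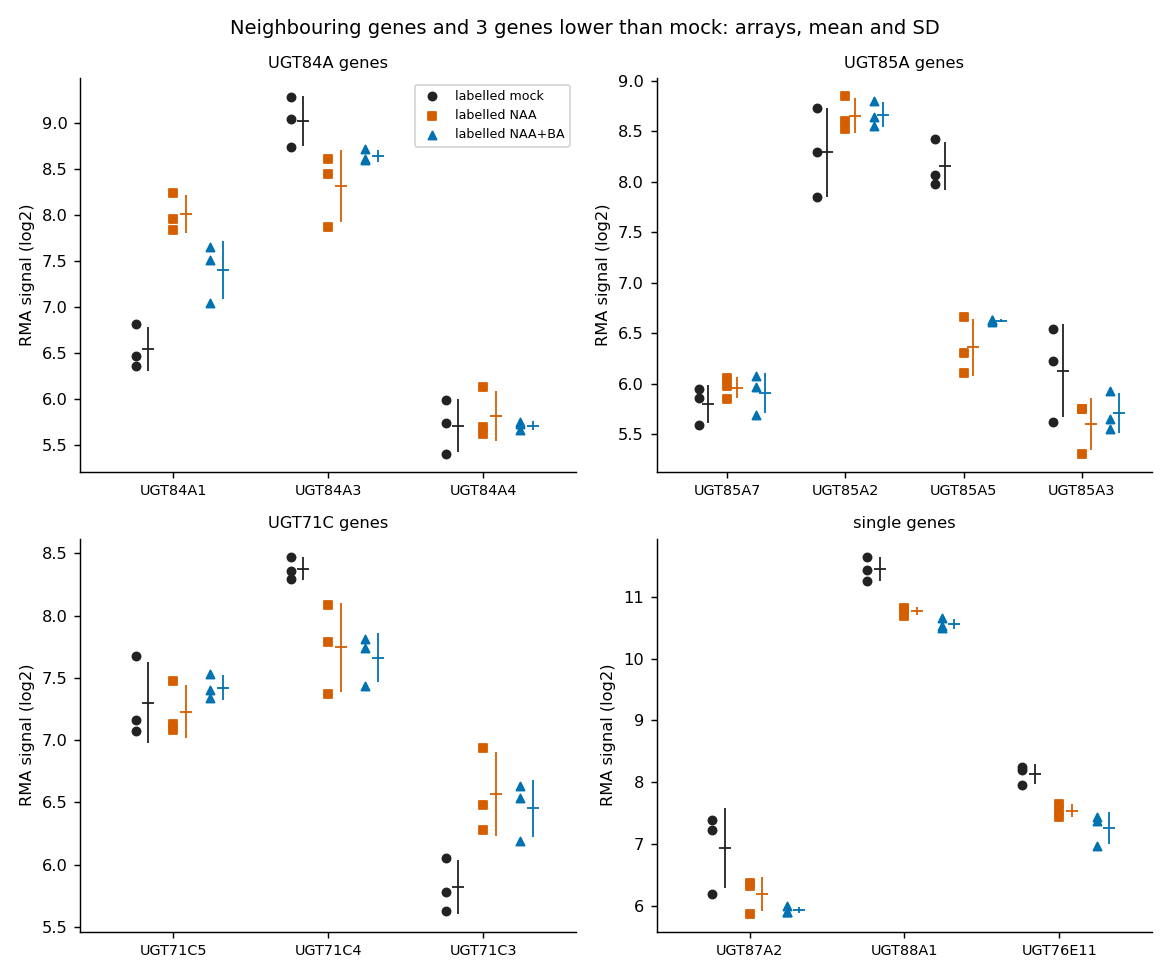
Log2 RMA signal (y axis) on each array for the UGT84A, UGT85A and UGT71C neighbours and for 3 single genes, with a bar giving the mean and SD of 3 arrays per labelled group. UGT84A1 rises from mock to NAA where UGT84A3 falls, UGT85A5 falls where UGT85A2 and UGT85A7 overlap with mock, and UGT71C3 and UGT71C4 go opposite ways.

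UGT88A1, UGT76E11, UGT71C3 and UGT71C4 passed the adjusted p-value in both comparisons with mock but changed by less than 2-fold; of these, UGT76E11 and UGT71C4 were singled out after their values were seen. UGT88A1 read 11.65, 11.44 and 11.26 on mock, 10.69, 10.82 and 10.81 on NAA and 10.49, 10.66 and 10.53 on NAA+BA. Its groups were all apart, and the differences from mock were -0.68 ± 0.13 (limma adjusted p = 0.00705) and -0.89 ± 0.13 (adjusted p = 0.00252). UGT76E11 (AT3G46670) read 7.95 to 8.24 on mock, 7.43 to 7.65 on NAA and 6.96 to 7.43 on NAA+BA, and the differences were -0.60 ± 0.15 (adjusted p = 0.0251) and -0.88 ± 0.15 (adjusted p = 0.00509). Its neighbour UGT76E12 was among the dimmest genes and differed by -0.30 ± 0.25 and -0.29 ± 0.25, which did not pass.

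UGT71C3 and UGT71C4 are a second neighbouring pair that passed in opposite directions. UGT71C3 (AT1G07260), which is known to glucosylate methyl salicylate, read 5.78, 5.63 and 6.06 on mock, 6.28, 6.48 and 6.94 on NAA, and 6.54, 6.19 and 6.63 on NAA+BA. It was higher by 0.74 ± 0.20 (limma adjusted p = 0.0281) and 0.63 ± 0.20 (adjusted p = 0.0478). UGT71C4 (AT1G07250) read 8.36, 8.29 and 8.48 on mock, 7.37, 7.79 and 8.08 on NAA and 7.44, 7.74 and 7.81 on NAA+BA. No array labelled NAA or NAA+BA reached the mock range, and the differences were -0.63 ± 0.18 (adjusted p = 0.0398) and -0.71 ± 0.18 (adjusted p = 0.0231). UGT71C5 (AT1G07240), an abscisic acid glucosyltransferase on the other side of UGT71C4, differed by -0.07 ± 0.18 and 0.12 ± 0.18, and its groups overlapped. The UGT71C4 minus UGT71C3 difference changed by -1.37 between mock and NAA and by -1.35 between mock and NAA+BA.

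Across the genome, 29 of the 45 UGTs lay within 20 kb of another one in 12 clusters, giving 17 neighbouring pairs. Both neighbours passed the adjusted p-value in 2 pairs with NAA (UGT84A1 with UGT84A3, UGT71C4 with UGT71C3) and in 1 pair with NAA+BA (UGT71C4 with UGT71C3). In each of these the directions were opposite. Over all 17 pairs, the differences from mock had opposite signs in 7 with NAA and in 9 with NAA+BA.

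The 3 flavonoid UGTs were higher on NAA than on mock in every pair of arrays with the same number. UGT78D1 (AT1G30530) transfers rhamnose, UGT78D2 (AT5G17050) glucose and UGT78D3 (AT5G17030) arabinose to the 3-position of flavonols, and UGT78D2 also acts on anthocyanidins. UGT78D1 read 9.70, 10.09 and 10.17 on mock, 10.77, 10.73 and 10.54 on NAA and 9.96, 10.45 and 10.17 on NAA+BA. The NAA arrays lay above all others and the remaining groups overlapped. The difference from mock was 0.69 ± 0.17 with NAA (limma adjusted p = 0.0201) and 0.21 ± 0.17 with NAA+BA (adjusted p = 0.463). UGT78D3, singled out after its values were seen, read 4.88, 4.99 and 5.45 on mock, 5.95, 5.76 and 5.97 on NAA and 5.09, 5.63 and 5.40 on NAA+BA. Its differences were 0.79 ± 0.18 (adjusted p = 0.0169) and 0.27 ± 0.18 (adjusted p = 0.373), the same order of groups as for UGT78D1.

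UGT78D2 was less regular because replicate 3 was low in every group. It read 9.47, 9.36 and 8.51 on mock, 9.96, 9.95 and 9.20 on NAA and 9.53, 9.47 and 9.01 on NAA+BA. The difference of 0.59 ± 0.29 with NAA did not pass (limma adjusted p = 0.196), but arrays of the same number differed by 0.49, 0.60 and 0.69, and with the replicate block it passed (adjusted p = 0.0082). With NAA+BA the difference from mock was 0.22 ± 0.29.

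Of 28 listed genes of flavonoid synthesis and its regulation, 3 were matched to a probe set. DFR, the dihydroflavonol reductase that leads to anthocyanins, was called higher with NAA. It read 8.92, 8.20 and 8.01 on mock, 10.36, 10.02 and 9.31 on NAA and 9.59, 9.27 and 8.47 on NAA+BA. The differences were 1.52 ± 0.35 (limma adjusted p = 0.0174) and 0.73 ± 0.35 (adjusted p = 0.191). CHIL, a non-catalytic relative of chalcone isomerase, differed by 1.11 ± 0.39 with NAA, which did not pass (adjusted p = 0.08), and BAN, the anthocyanidin reductase of the seed coat, by 0.15 ± 0.20.

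**Figure D4:**
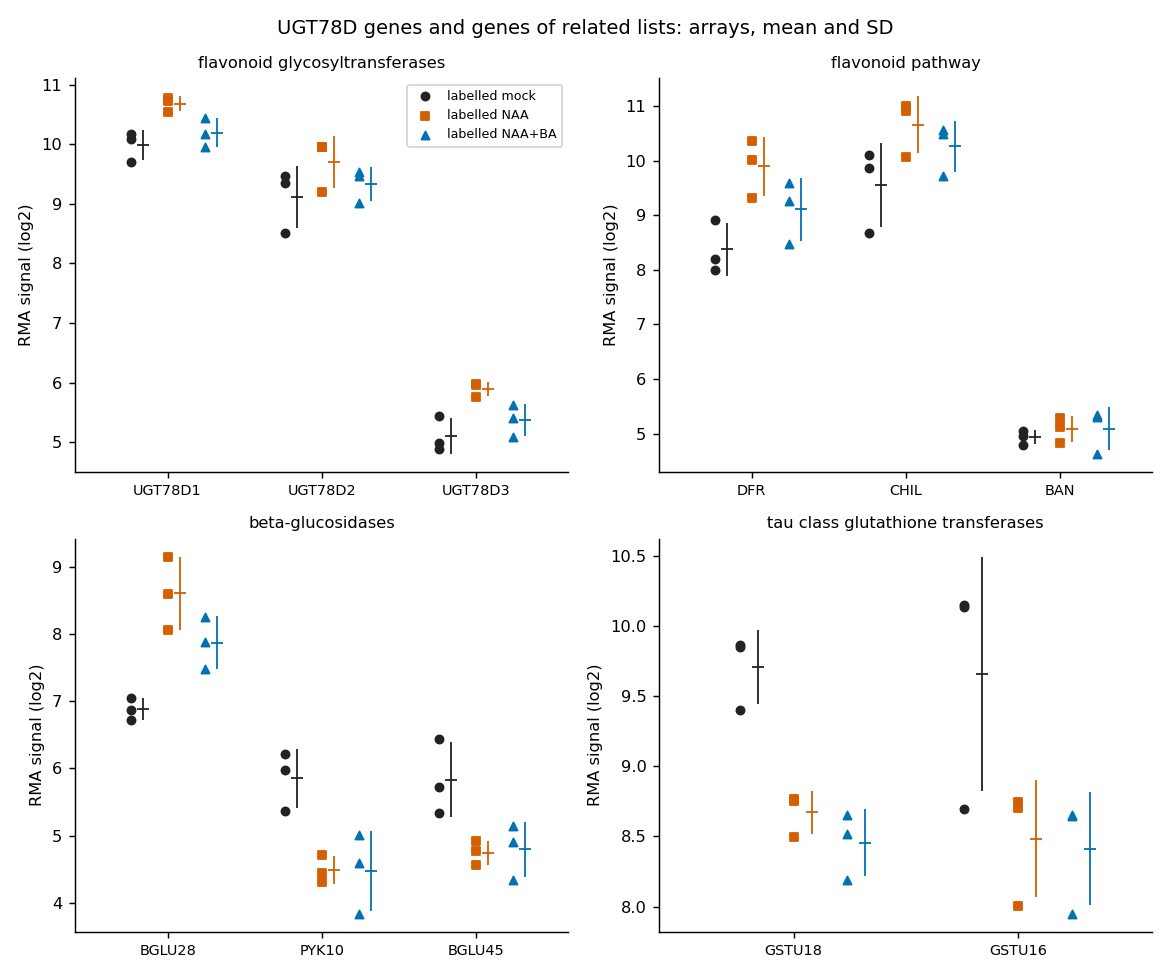
Log2 RMA signal (y axis) on each array for the 3 UGT78D genes and for genes of the flavonoid, beta-glucosidase and tau class glutathione transferase lists, with a bar giving the mean and SD of 3 arrays per labelled group. UGT78D1, UGT78D3 and DFR are highest on the NAA arrays, with NAA+BA between NAA and mock in the mean.

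Here 11 measured UGTs were assigned to auxin, salicylate and related acids, abscisic acid or jasmonates. CK was not among the roles assigned, which does not mean that no measured UGT acts on CK. Of these 11, UGT71C3 passed the adjusted p-value in both comparisons with mock, and UGT74D1 with NAA+BA alone. Over all probe sets 18.3% passed with NAA and 19.9% with NAA+BA. UGT74D1 (AT2G31750) glucosylates indole-3-acetic acid and its oxidised form. It read 9.22, 9.34 and 8.77 on mock, 9.17, 9.14 and 8.93 on NAA, and 8.42, 8.69 and 8.12 on NAA+BA. Mock and NAA overlapped, and all NAA+BA arrays lay below both. The difference from mock was -0.03 ± 0.19 with NAA (limma adjusted p = 0.936) and -0.70 ± 0.19 with NAA+BA (adjusted p = 0.0276). From NAA it was -0.67 ± 0.19, the largest decrease of any UGT in that comparison, which did not pass over all probe sets (limma adjusted p = 1, or 0.0464 with array weights and 0.22 with the replicate block). UGT84B1 (AT2G23260), the other measured enzyme of auxin conjugation, stayed between 4.04 and 4.63 on all 9 arrays.

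Of the enzymes of salicylate and related defence acids, only UGT71C3 passed without the replicate block. UGT74F1, which forms salicylate glucosides, read 5.56, 5.64 and 5.18 on mock, 5.90, 5.93 and 5.71 on NAA and 5.53 to 5.78 on NAA+BA. The NAA arrays lay above the mock arrays by 0.39 ± 0.15 (limma adjusted p = 0.0978, or 0.0391 with the block). UGT76B1, which acts on isoleucic acid, salicylate and N-hydroxypipecolic acid, was at 3.20 to 4.22 on all arrays. UGT76D1, which acts on dihydroxybenzoic acids, read 4.96 to 5.27 and differed from mock by 0.01 ± 0.12 in both comparisons.

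The abscisic acid enzymes UGT71B6, UGT71B8 and UGT71C5 differed from mock by -0.07 to 0.17 with NAA and by -0.21 to 0.12 with NAA+BA. UGT71B6 read 3.62 to 4.07 on 8 arrays and 4.66 on replicate 3 of NAA. UGT76E1 and UGT76E2, neighbouring genes whose enzymes act on hydroxylated jasmonates, were lower on NAA+BA than on NAA without overlap. UGT76E1 was dim, at 3.81 to 4.60 over the 9 arrays. UGT76E2 read 5.66, 5.08 and 5.25 on mock, 5.18, 5.0 and 5.80 on NAA and 4.80, 4.70 and 4.96 on NAA+BA. The UGT76E2 difference between NAA+BA and NAA was -0.51 ± 0.22 and the UGT76E1 difference was -0.36 ± 0.15 (limma adjusted p = 1 for each).

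**Figure D5:**
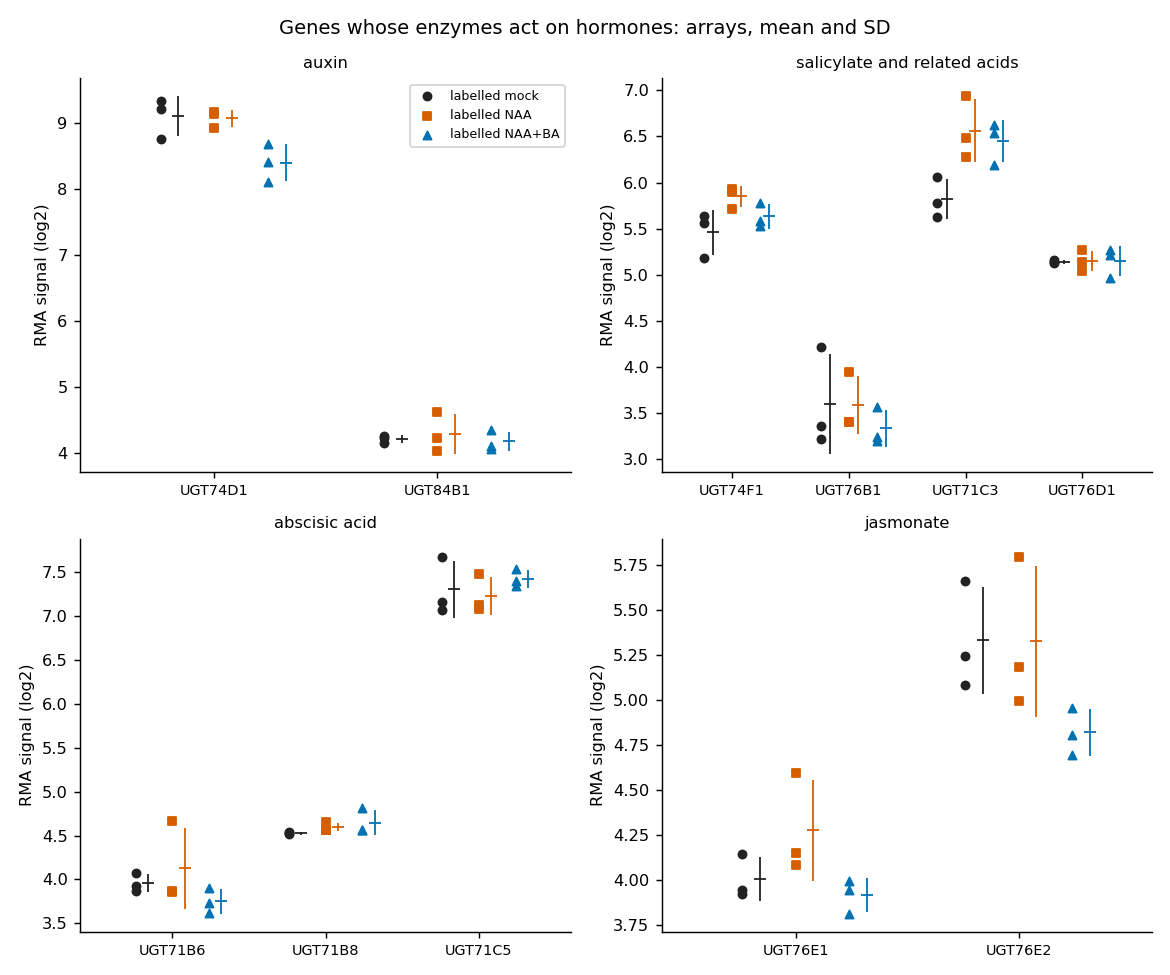
Log2 RMA signal (y axis) on each array for UGT genes whose enzymes act on auxin, salicylate and related acids, abscisic acid and jasmonates, with a bar giving the mean and SD of 3 arrays per labelled group. UGT74D1 is lower on NAA+BA than in both other groups, and UGT71C3 is higher on the NAA and NAA+BA arrays than on mock.

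Between NAA+BA and NAA, 0 of the 45 UGTs were called with limma, where 0.00877% of all probe sets, or 2 of 22810, were called. At an unadjusted limma p under 0.05, without the 2-fold requirement, 6 UGTs (13.3%) were different, against 2.49% of all probe sets, and all 6 were lower on NAA+BA. These were UGT74D1, UGT84A1, UGT78D3, UGT76E2, UGT78D1 and UGT76E1. Their 95% intervals lay between -1.09 and -0.02, and the NAA+BA and NAA arrays of these genes did not overlap. The genes were picked by p-value on the same arrays, so the lack of overlap is no separate support. UGT76E1 stayed under 5 on every array. The arrays of these groups did not overlap for 15.6% of the UGTs and 8.89% of all probe sets. UGT84A1 differed by -0.61 ± 0.19 and UGT78D3 by -0.52 ± 0.18, neither of which passed the adjusted p-value. As labelled, the means of both lay closer to mock on NAA+BA than on NAA. In all, 30 of 45 UGTs had a lower mean on NAA+BA than on NAA, or 66.7% against 50.3% of all probe sets, with a median of -0.12 against 0.00. The count was 31 after a second quantile normalization, against 51.3% of all probe sets. Centring each array on its median gave 36 and also raised the share of all probe sets to 65.3%. Fewer UGTs lay below 0 when all arrays numbered 3 were left out. Replicate 3 of NAA was the highest of its group for 27 of 45 UGTs. The lean toward lower values on NAA+BA therefore rests in part on replicate 3. For 41 of 45 UGTs the 95% interval of the NAA+BA minus NAA difference lay within 2-fold in either direction.

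The genes of the next paragraphs and UGT85A4 were chosen by their roles or families after their values were seen. Among the remaining enzymes of phenylpropanoids, UGT72E1, UGT72E2 and UGT72E3, which glucosylate monolignols and related aldehydes, did not pass in any comparison. Their differences from mock ran from -0.43 to 0.19 with NAA and from -0.05 to 0.19 with NAA+BA. UGT73C7, which acts on phenylpropanoid acids, differed by -0.30 ± 0.14 with NAA. HCT, CCR2 and REF1, the 3 of 23 listed genes of this pathway that were matched, differed by -0.40 to -0.22 with NAA and none was called.

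The stress-responsive UGT73B genes varied widely between replicates, and UGT73B1 was lower than mock in every pair of arrays with the same number. UGT73B1 read 7.43, 7.61 and 8.42 on mock, 6.71, 7.25 and 7.55 on NAA and 6.55, 7.14 and 7.51 on NAA+BA, with replicate 3 the highest in every group. Its differences from mock were -0.65 ± 0.32 (limma adjusted p = 0.201) and -0.76 ± 0.32 (adjusted p = 0.136). Both passed with the replicate block (adjusted p = 0.00735 and 0.00378). The arrays of NAA+BA and mock did not meet the rule used here for pairing by number. UGT73B5 reached 5.86 on replicate 3 of NAA and was 4.63 to 5.35 elsewhere. UGT80B1, a sterol glucosyltransferase, likewise read highest on replicate 3 of each group, at 8.31, 8.15 and 8.29, and differed from mock by -0.09 ± 0.26 and 0.12 ± 0.26. UGT71B1 was lower with NAA+BA by -0.68 ± 0.20 (adjusted p = 0.0409), after readings of 9.74, 9.65 and 9.05 on mock and 9.0, 8.81 and 8.60 on NAA+BA. With NAA its difference was -0.47 ± 0.20 (adjusted p = 0.135).

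Split by sequence group, the calls were 1 of 8 genes in group L (UGT84A1), 1 of 5 in group G (UGT85A5) and the single member of group J (UGT87A2), beside 4.78% and 5.44% of all probe sets. None of the 14 genes of group E or the 7 of group D was called. In group E, 3 genes passed the adjusted p-value alone with NAA and 4 with NAA+BA, and in group D 0 passed in either, or UGT73B1 alone with the replicate block. Over all probe sets 18.3% and 19.9% passed. All 3 genes of group F, the UGT78D genes, were above mock in the mean in both comparisons. Of all 22810 probe sets, 12738 were above mock with NAA and 12103 with NAA+BA. With NAA+BA none of the 3 passed, and their arrays overlapped with mock.

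Lists of enzymes that act before, after or beside UGTs gave calls in both directions. USP, a UDP-sugar pyrophosphorylase and the only 1 of 27 listed genes of UDP-sugar supply that was matched, differed by 0.34 ± 0.15 with NAA (limma adjusted p = 0.135). Of 21 measured beta-glucosidases, which remove sugars, 3 were called with NAA (14.3%, against 4.78% of all probe sets) and 2 with NAA+BA (9.52%, against 5.44%). BGLU28, known from sulfur starvation, read 7.05, 6.72 and 6.87 on mock, 9.15, 8.59 and 8.07 on NAA and 7.47, 7.88 and 8.26 on NAA+BA. It was higher by 1.73 ± 0.27 with NAA (adjusted p = 0.00342) and by 0.99 ± 0.27 with NAA+BA (adjusted p = 0.0302). BGLU45, which acts on monolignol glucosides, was lower by -1.09 ± 0.28 (adjusted p = 0.0253) and -1.04 ± 0.28 (adjusted p = 0.0278). The remaining called gene was PYK10 (BGLU23), lower in both comparisons. The same probe set is described below as a root marker.

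Tau class glutathione transferases conjugate glutathione to foreign compounds and often respond to the same chemicals as UGTs. Of 11 measured, 1 was called with NAA (9.09%, against 4.78% of all probe sets). With NAA+BA, 2 were called (18.2%, against 5.44%), both lower. GSTU18 was lower by -1.04 ± 0.17 (limma adjusted p = 0.00424) and -1.25 ± 0.17 (adjusted p = 0.00221). GSTU16 differed by -1.17 ± 0.39 (adjusted p = 0.0628) and -1.24 ± 0.39 (adjusted p = 0.0486). None of the 2 measured glucosinolate pathway genes was called.

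Of the matched markers of other tissues and of stress, PYK10 and COR15A were called, and SAG29 and YAB3 were not. PYK10 (BGLU23), a beta-glucosidase of root endoplasmic reticulum bodies and the only root marker matched, read 5.97, 5.36 and 6.22 on mock, 4.31 to 4.72 on NAA and 3.83 to 5.01 on NAA+BA, and was called lower in both comparisons with mock. COR15A, a cold and dehydration responsive gene, read 8.94, 10.04 and 9.18 on mock, 6.81, 7.35 and 6.41 on NAA and 6.64, 8.44 and 7.39 on NAA+BA. It was called lower by -2.53 ± 0.44 (limma adjusted p = 0.00535) and -1.90 ± 0.44 (adjusted p = 0.016). The senescence gene SAG29 differed by -0.02 ± 0.34 and 0.06 ± 0.34. YAB3, a gene of young leaf primordia, was higher by 0.36 ± 0.10 with NAA (adjusted p = 0.0377). With NAA+BA it differed by 0.14 ± 0.10 (adjusted p = 0.4). The bud marker LAS differed by 0.08 ± 0.19 and -0.01 ± 0.19. Their part in the UGT results was not tested.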

How the data were processed

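The deposited values are log2 signals of Affymetrix ATH1 arrays, which the authors made with RMA (background correction, quantile normalization and probe set summary) in R 2.15, with limma; for their limma version and array definition file: not given in the sources used here. The labels and the study name different labelling kits. Each sample was grouped by its GEO label. All 9 arrays entered 1 group-means model in limma 3.58.1 (R 4.3.3) and moderated with eBayes. Benjamini-Hochberg adjustment ran over 22810 probe sets (adjusted p under 0.05 and 2-fold). The fit was tested on simulated data.

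Members and gene lists were chosen with earlier results of these data known. Named genes were those called, the 5 highest and 5 lowest means, hormone enzymes and cluster neighbours of called genes. Other genes given with values were added by role, family or size of change after their values were seen. Genes of the lists without a matched probe set were not analysed here. No sequences or coordinates are shown. The number of arrays limits the precision.

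Mock and NAA arrays of the same number deviated together (correlations 0.32, 0.38 and 0.45), so that the replicate number pairs them by the rule used (each above 0.1). For NAA+BA with mock they were 0.24, 0.08 and 0.51 and for NAA+BA with NAA 0.04, 0.30 and 0.36, which do not meet it. Alternatives were the replicate block, array weights, other scalings, filters, thresholds and left-out arrays.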

Additional observations from a re-analysis of the deposited data

How the results depend on the processing

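The calls of UGT84A1 with NAA and of UGT85A5 in both comparisons with mock held under all alternatives. With the replicate block the counts of called UGTs stayed at 2 with NAA, 2 with NAA+BA and 0 between NAA+BA and NAA, the last being 0 under every alternative run with limma. Without the 2-fold requirement the counts with NAA and with NAA+BA were 9 each. With NAA+BA the count was 1 when only the 6 arrays of that comparison were fitted (UGT87A2 then had an adjusted p = 0.062) and 1 at an adjusted p under 0.01. Leaving out 1 array gave 2 to 3 called UGTs with NAA and 1 to 2 with NAA+BA. Leaving out all arrays numbered 3, an alternative chosen after seeing the data, gave 3 in each. Signals under about 5 limit what can be said of 16 UGTs that did not exceed that level on 3 arrays, of which 0 were called.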
